A study of Mus musculus with 12 samples.

Results

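Cdh5, Pecam1, Cldn5, Esam, Icam2, Emcn and Tjp1 are 7 genes of endothelial junctions and the endothelial surface. The proteins of all but Emcn sit at the contacts between endothelial cells, and that of Emcn coats the endothelial surface. The 7 genes were taken by name from the 35976 gene names in the expression files, all 7 names were found once in each file, and all 7 passed the filter on low values that left 13316 genes for testing. The cells came from the mouse embryonic stem cell line A2lox.cre, which carried a doxycycline-inducible RUNX1-EVI1 construct in treated and untreated groups alike. RUNX1-EVI1 is a leukaemia fusion of a blood transcription factor, RUNX1, with EVI1, the zinc finger protein of the Mecom locus. FLK1+ cells were taken from embryoid bodies after 3.25 days by magnetic sorting, cultured for 1 day with VEGF, IL-6 and D4T conditioned medium, and then kept for 18 hours with 0.5 µg/ml doxycycline (PlusDox) or with none (NoDox). Sorting separated 2 populations of hemogenic endothelium, HE1 and HE2, from hematopoietic progenitors, or HP. This gave 6 groups: PlusDox HE1, NoDox HE1, PlusDox HE2, NoDox HE2, PlusDox HP and NoDox HP, each with 2 libraries described as biological replicates. The line was grown from single colonies, and a cell group with doxycycline but without the construct was not analysed here, so fusion and drug cannot be told apart. How the sort gates were set is not stated here.

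Endothelial cells line blood vessels and hold together through adherens junctions and tight junctions. In the adherens junction, VE-cadherin, the product of Cdh5, binds its copy on the neighbouring cell and is anchored through catenins. In the tight junction, claudins such as the Cldn5 product seal the gap and are tied to actin by scaffolds such as ZO-1, the Tjp1 product. Hemogenic endothelium is endothelium that gives rise to blood: its cells round up, leave the vessel wall and replace endothelial with blood gene expression, a process called the endothelial-to-hematopoietic transition. Of the 7, Pecam1 (CD31), Esam and Icam2 are known from platelets or leukocytes as well as from endothelium.

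The genes lie at separate loci of mm10, in the GENCODE annotation. Cdh5 is on chromosome 8 (104101613 to 104144504, plus strand, 12 exons in its longest coding transcript). Pecam1 (106654213 to 106715281, minus strand, 16 exons) and Icam2 (106377656 to 106388139, minus strand, 4 exons) share chromosome 11. Cldn5 is a single-exon gene on chromosome 16 (18776847 to 18778262, plus strand). Esam is on chromosome 9 (37528089 to 37538319, plus strand, 7 exons), Emcn on chromosome 3 (137341062 to 137431069, plus strand, 12 exons) and Tjp1 on chromosome 7 (65296165 to 65527850, minus strand, 28 exons). The sequence immediately upstream of the start was at hand for 3 of the 7, from RefSeq on GRCm38.p6 (mm10), and these are shown so that their base composition and motif matches can be read beside the levels. Capitals mark matches to 5 motifs searched on both strands, TGTGGT for RUNX factors, AGATAA for GATA factors, CGGAAG and AGGAAG for ETS factors and ACAATG for SOX factors.
Cldn5, chr16:18776597-18776846, plus strand: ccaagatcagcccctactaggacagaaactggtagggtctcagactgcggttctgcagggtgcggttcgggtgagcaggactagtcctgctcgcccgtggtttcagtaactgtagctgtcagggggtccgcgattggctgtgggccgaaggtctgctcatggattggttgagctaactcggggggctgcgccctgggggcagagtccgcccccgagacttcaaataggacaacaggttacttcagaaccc
Emcn, chr3:137340828-137341061, plus strand: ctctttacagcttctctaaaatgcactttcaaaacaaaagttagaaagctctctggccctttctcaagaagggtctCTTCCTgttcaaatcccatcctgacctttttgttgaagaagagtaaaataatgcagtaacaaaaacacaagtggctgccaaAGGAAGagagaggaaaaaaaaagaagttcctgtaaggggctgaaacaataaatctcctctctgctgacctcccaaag
Tjp1, chr7:65371245-65371494, minus strand: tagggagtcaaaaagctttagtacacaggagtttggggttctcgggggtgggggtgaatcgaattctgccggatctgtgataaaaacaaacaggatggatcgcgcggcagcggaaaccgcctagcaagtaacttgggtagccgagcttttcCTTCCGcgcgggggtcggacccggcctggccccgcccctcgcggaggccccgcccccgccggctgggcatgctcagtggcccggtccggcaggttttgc
Positions give the first base of a match, counted back from the end of the window. The Cldn5 window held none of the 5 motifs and was 59.6% G or C with 12 CpG dinucleotides. The Emcn window, shortened to 234 bases so that it stops at the annotated start, held AGGAAG at position −77 and its reverse complement at position −158, and was 40.2% G or C with 0 CpG. The Tjp1 window held the reverse complement of CGGAAG at position −99, was 63.2% G or C with 22 CpG, and lies inside an intron of a longer Tjp1 transcript. Over 32851 windows of 250 bases upstream of gene starts, with a median of 52.4% G or C, 29.5% held AGGAAG, 13.6% CGGAAG, 14.05% TGTGGT, 9.99% AGATAA and 10.7% ACAATG. A match is a description of letters and does not mark a bound site.

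Expression is given as FPKM, the fragments scaled by transcript length and by library size, so that levels may be set side by side between genes. Each library had 11461 to 12174 genes at 1 FPKM or more, and the read counts behind the values are unknown. The smallest steps between low values put the relative depth of 11 of the 12 libraries at 0.580 to 1.59 and that of PlusDox HP replicate 1 at 2.43, which by this method may be off by a whole multiple. Replicate 2 of all 3 PlusDox groups, replicate 2 of NoDox HP and replicate 1 of NoDox HE1, 5 libraries in all, stood apart in Lars2, Mir6236 and LOC101056014. These features made up 8.81% to 16.9% of their total FPKM and 0.355% to 0.591% in the other 7. Mecom, the locus of the EVI1 part, had 5.18 and 5.51 FPKM in PlusDox HP and 0.194 and 0.205 FPKM in NoDox HP, and its PlusDox and NoDox libraries overlapped in HE1. Of 8 endothelial markers (Kdr, Tek, Tie1, Flt1, Egfl7, Ramp2, Sox18 and Eng), all were above 1 FPKM in at least 1 library of every group, and their sum was 1342 to 2029 FPKM in HE1, 867 to 1481 FPKM in HE2 and 114 to 293 FPKM in HP. Of 8 hematopoietic markers, Ptprc, Spn and Rac2 stayed below 1 FPKM in all HE1 libraries, and all 8 reached it in HP.

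Cdh5, the adherens junction cadherin, was the most abundant of the 7 in HE1. Its level was 433 and 374 FPKM in PlusDox HE1, against 298 and 438 FPKM in NoDox HE1. In HE2 it was 317 and 292 FPKM in PlusDox cells and 160.3 and 253 FPKM in NoDox cells. HP held 53.2 and 36.4 FPKM in PlusDox cells and 10.8 and 9.88 FPKM in NoDox cells. The PlusDox and NoDox libraries overlapped in HE1 and stood apart in HE2 and HP, with the higher values in PlusDox.

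The 3 adhesion molecules of the immunoglobulin superfamily were Pecam1, Esam and Icam2. Pecam1, which binds its own copy on the next cell, had 334 and 374 FPKM in PlusDox HE1 and 265 and 407 FPKM in NoDox HE1. Pecam1 in HE2 was 268 and 279 FPKM with doxycycline and 153.5 and 216 FPKM without it. In HP it was still 90.8 and 77.1 FPKM in PlusDox cells and 67.6 and 52.1 FPKM in NoDox cells, which made it the highest of the 7 in all 4 HP libraries. Esam, an adhesion molecule of endothelial tight junctions and platelets, had 166.5 and 136.5 FPKM in PlusDox HE1 and 115 and 158 FPKM in NoDox HE1. Its HE2 values were 137 and 142 FPKM in PlusDox cells and 50.7 and 87.0 FPKM in NoDox cells, and its HP values were 14.9 and 11.8 FPKM in PlusDox cells and 4.54 and 6.21 FPKM in NoDox cells. The Esam libraries overlapped in HE1 and were higher with doxycycline in both other populations. Icam2, a ligand for leukocyte integrins on resting endothelium, had 165 and 147 FPKM in PlusDox HE1 and 124 and 179 FPKM in NoDox HE1. The 2 PlusDox HE2 libraries held 113 and 121 FPKM of Icam2, against 42.9 and 80.7 FPKM in NoDox HE2. In HP, Icam2 was 4.89 and 5.29 FPKM with doxycycline and 1.26 and 1.81 FPKM without it, so that again only HE1 overlapped.

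For the tight junction, Cldn5 and Tjp1 gave different pictures. Cldn5 had 58.8 and 72.2 FPKM in PlusDox HE1 and 26.5 and 65.0 FPKM in NoDox HE1. In HE2 it was 60.0 and 86.3 FPKM in PlusDox cells, against 11.9 and 34.1 FPKM in NoDox cells. The HP values of Cldn5 were below 1 FPKM in all 4 libraries, at 0.848 and 0.847 FPKM in PlusDox cells and 0.369 and 0.364 FPKM in NoDox cells. Cldn5 was the only member whose mean was higher in PlusDox HE2 than in PlusDox HE1, with libraries that overlapped. Tjp1 had 76.3 and 58.6 FPKM in PlusDox HE1 and 65.5 and 76.2 FPKM in NoDox HE1. Its values were 32.4 and 36.8 FPKM in PlusDox HE2 and 21.1 and 41.7 FPKM in NoDox HE2, and 6.39 and 9.30 FPKM in PlusDox HP and 5.36 and 5.04 FPKM in NoDox HP. With and without doxycycline, Tjp1 overlapped in HE1 and HE2 and not in HP.

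Emcn encodes endomucin, a sialomucin that coats the endothelial surface and the least abundant of the 7 in every HE1 and HE2 library. It had 18.4 and 28.1 FPKM in PlusDox HE1, against 9.55 and 31.6 FPKM in NoDox HE1. In HE2 it was 10.6 and 23.0 FPKM in PlusDox cells and 4.35 and 13.7 FPKM in NoDox cells. HP replicate 1 had 0.130 FPKM with doxycycline and was listed at 0 without it, and HP replicate 2 was listed at 0 with doxycycline and had 0.459 FPKM without it. Emcn overlapped between PlusDox and NoDox in all 3 populations.

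**Figure D1:**
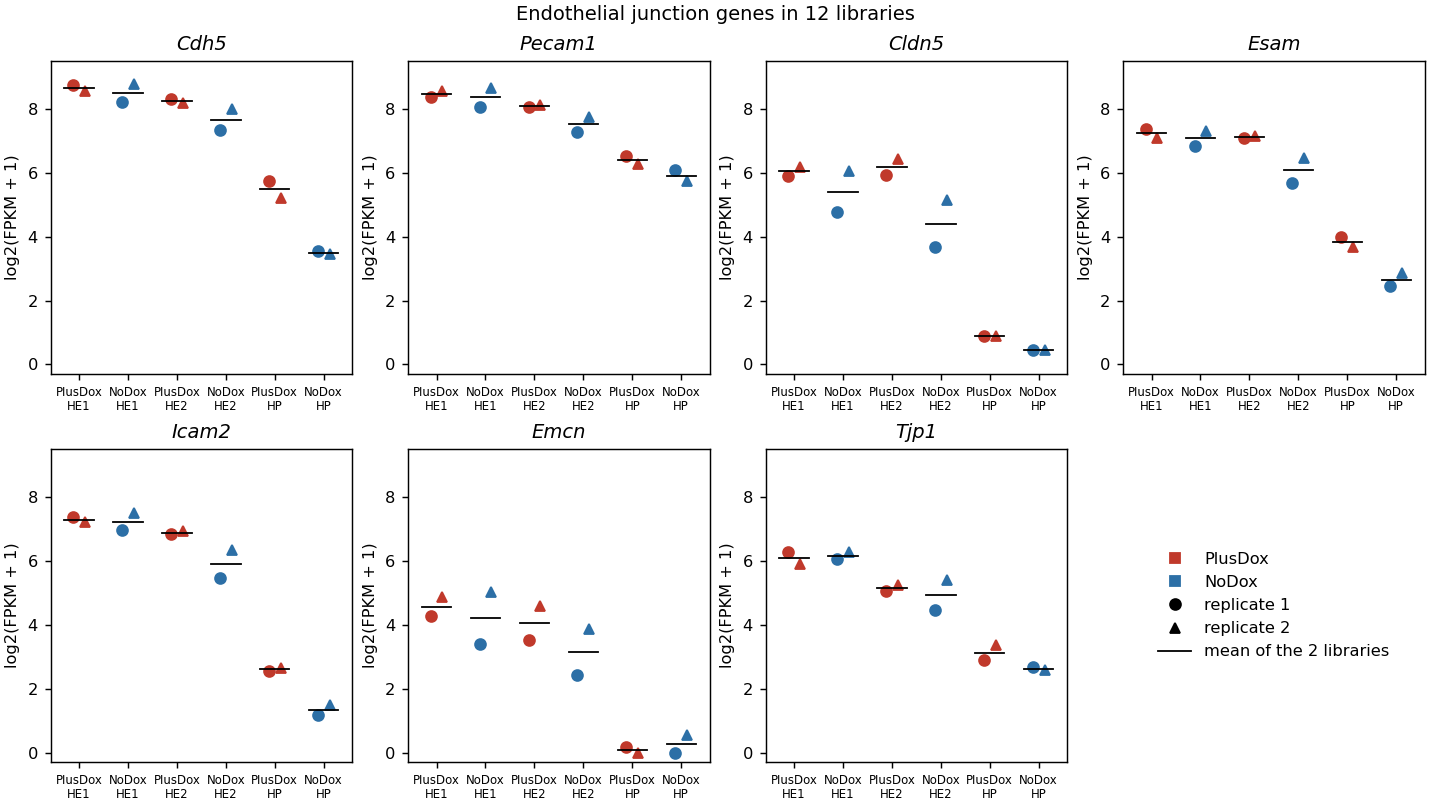
Levels of the 7 junction genes as log2(FPKM + 1) on the vertical axes, in PlusDox (red) and NoDox (blue) libraries of HE1, HE2 and HP; circles are replicate 1, triangles replicate 2 and bars the mean of both. Every gene is lowest in HP, and Cdh5 shows the widest gap there between PlusDox (53.2 and 36.4 FPKM) and NoDox (10.8 and 9.88 FPKM).

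In order of mean level, both HE1 groups came first, both HP groups last and PlusDox HE2 above NoDox HE2 for Cdh5, Pecam1, Icam2, Emcn and Tjp1, while PlusDox HE2 led for Cldn5 and came second for Esam. PlusDox HE2 and NoDox HE2 were neighbours in this order with libraries that did not overlap for Cdh5, Pecam1 and Icam2, and with overlapping libraries for Emcn and Tjp1. NoDox HE2 lay above PlusDox HP without overlap for all 7 members, and for Emcn NoDox HP ranked between them. PlusDox HE1 and NoDox HE1 overlapped for all 7. The shares of all genes that stood apart or overlapped in the same way are not given here.

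No member changed detectably with doxycycline in HE1. None was called at an adjusted p below 0.05 (limma, two-sided, Benjamini-Hochberg over all 13316 genes), where 1.37% of all genes were. None reached an unadjusted p below 0.05, where 1277 of all genes did. The log2 fold changes were 0.64 for Cldn5 (95% interval −0.33 to 1.60), 0.36 for Emcn, 0.16 for Esam, 0.11 for Pecam1, 0.06 for Icam2 and −0.08 for Tjp1 (−0.69 to 0.54), with a median of 0.15 over the members and −0.07 over all genes. For Cdh5 the difference was 0.15 ± 0.26 (log2, SE; adjusted p = 0.966), with an interval of −0.42 to 0.73. Within the libraries low in Lars2 the Cldn5 difference in HE1 was −0.14 and within those high in it 1.41, with 1 library a group, and for Emcn these values were −0.75 and 1.46.

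In HE2, Cldn5 and Esam rose with doxycycline. Cldn5 averaged 73.2 ± 18.6 FPKM in PlusDox HE2 and 23.0 ± 15.8 FPKM in NoDox HE2 (SD, n = 2 each), a log2 fold change of 1.78 ± 0.44 (SE; limma adjusted p = 0.0367). Esam averaged 139 ± 3.54 FPKM in PlusDox HE2 and 68.9 ± 25.7 FPKM in NoDox HE2, a log2 fold change of 1.06 ± 0.26 (adjusted p = 0.0368, limma). The other 5 members did not pass: Icam2 stood at 0.98 ± 0.27 (adjusted p = 0.0541), Cdh5 at 0.59 ± 0.26 (0.209), Pecam1 at 0.58 ± 0.24 (0.186), Emcn at 0.91 ± 0.55 (0.365) and Tjp1 at 0.21 ± 0.28 (0.714), on the same log2 scale. So 2 of 7 members were called higher and 0 lower, where 3.82% of all tested genes were called higher. Both PlusDox libraries lay above both NoDox libraries for 5 of 7 members, against 22.3% of all genes, and the median log2 fold change was 0.91 over the members and −0.05 over all genes. Both calls hang on single libraries. Without NoDox HE2 replicate 1 the log2 fold change was 1.05 (adjusted p = 0.296) for Cldn5 and 0.67 (0.312) for Esam, without PlusDox HE2 replicate 2 it was 1.52 (0.237) and 1.03 (0.184), and without PlusDox HE2 replicate 1 it was 2.04 (0.0535) and 1.08 (0.0845). Without the filter on low values the adjusted p was 0.141 for Cldn5 and 0.109 for Esam, and with only the HE2 groups in the fit it was 0.0847 and 0.0964, so that both calls were lost. Cldn5 was also lost without NoDox HP replicate 1 (adjusted p = 0.0543) or replicate 2 (0.0545), and Icam2 was gained without NoDox HE2 replicate 2 (1.43, 0.00988), under median scaling (1.06, 0.0334) and under quantile normalization (1.05, 0.0455).

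The sum of the endothelial markers was 1481 and 1291 FPKM in PlusDox HE2 and 867 and 1239 FPKM in NoDox HE2, of which NoDox replicate 1 was the lowest library. Of these 8 markers, 1 (Egfl7) was called higher in PlusDox HE2, where 3.82% of all genes were. Egfl7 had 515 and 486 FPKM in PlusDox HE2 and 185.5 and 287 FPKM in NoDox HE2. Ramp2 was also higher in both PlusDox libraries, but Kdr, Tek, Tie1, Flt1, Sox18 and Eng overlapped between PlusDox and NoDox. The median log2 fold change over the 8 markers was 0.16. The sum of the hematopoietic markers was higher, at 213 and 154 FPKM in PlusDox HE2 and 136 and 92.6 FPKM in NoDox HE2, with 4 of 8 (Coro1a, Ptprc, Spn and Spi1) called higher. Of the 4 not called, Rac2 was higher in both PlusDox libraries. Myb was lower, at 33.95 and 18.05 FPKM in PlusDox HE2 and 56.5 and 34.5 FPKM in NoDox HE2. Gfi1b had 21.9 and 8.75 FPKM in PlusDox HE2 and 32.5 and 14.7 FPKM in NoDox HE2, and Gfi1 had 16.2 and 6.69 FPKM and 16.8 and 10.8 FPKM. The megakaryocyte and platelet sum was lower, at 253 and 155 FPKM in PlusDox HE2 and 385 and 308 FPKM in NoDox HE2, with Pf4, Ppbp, Gp9, Gp1bb and Gp6 below 1 FPKM in all 4 libraries. The part of these markers in the junction gene values was not tested, and in bulk RNA fewer cells of a type and less RNA per cell cannot be told apart.

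In HP, Cdh5 rose with doxycycline. It averaged 44.8 ± 11.8 FPKM in PlusDox HP and 10.4 ± 0.677 FPKM in NoDox HP (SD, n = 2 each), a log2 fold change of 1.99 ± 0.26 (SE; limma adjusted p = 0.0058). It was the only member called, 1 of 7, where 0.601% of all genes were called higher. Icam2 stood at 1.27 ± 0.27 (adjusted p = 0.0577), Esam at 1.17 ± 0.26 (0.0735), Tjp1 at 0.49 ± 0.28 (0.71), Pecam1 at 0.49 ± 0.24 (0.599), Cldn5 at 0.44 ± 0.44 (0.938) and Emcn at −0.18 ± 0.55 (0.996), all on the log2(FPKM + 1) scale, which understates differences of genes near 0. With a pseudocount of 0.1 in place of 1, Icam2 passed at 1.69 (adjusted p = 0.0241) and Cldn5 stood at 1.02 (0.506). Both PlusDox HP libraries lay above both NoDox HP libraries for 6 of 7 members, all but Emcn, against 20.5% of all genes. The Cdh5 difference was 2.19 within the libraries low in Lars2 and 1.78 within those high in it. Its call was lost, at a like size, without NoDox HP replicate 1 (2.05, adjusted p = 0.0614) or NoDox HP replicate 2 (1.93, 0.0693).

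Endothelial markers moved with Cdh5 in HP. Their sum was 293 and 216 FPKM in PlusDox HP and 127 and 114 FPKM in NoDox HP, and Ramp2, Egfl7 and Sox18, 3 of the 8, were called higher, where 0.601% of all genes were. The hematopoietic sum was 315 and 259.9 FPKM in PlusDox HP and 236 and 231 FPKM in NoDox HP, with 1 of 8, Spn, called higher. The part of endothelial marker RNA in the Cdh5 value was not tested.

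**Figure D2:**
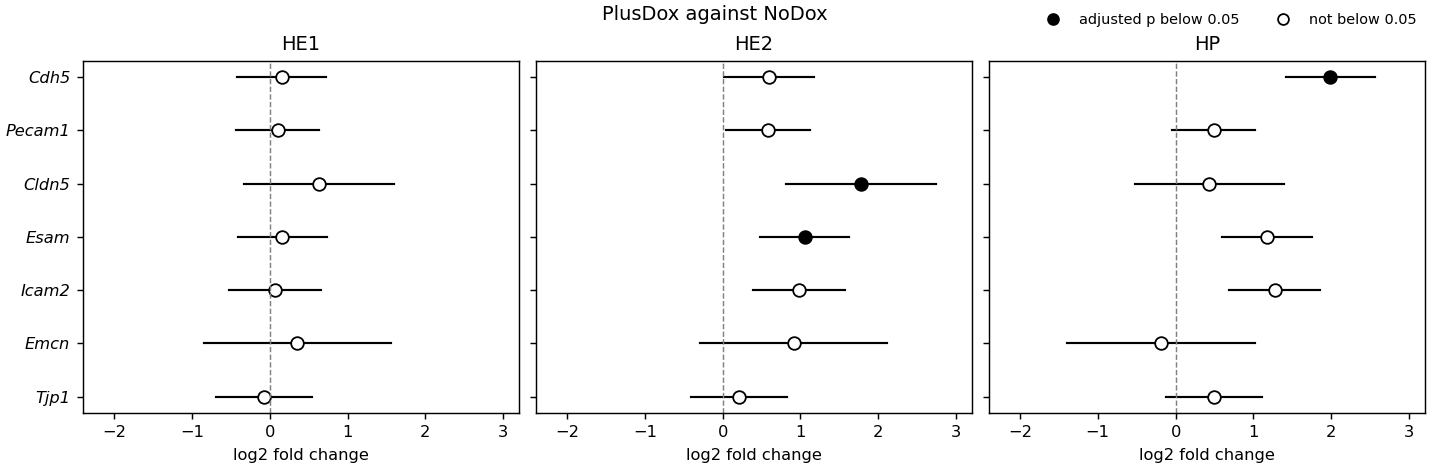
Log2 fold change of PlusDox against NoDox (horizontal axes) for the 7 genes in HE1, HE2 and HP, with 95% intervals from limma; filled points have an adjusted p below 0.05. All points lie within 0.64 of 0 in HE1, Cldn5 (1.78) and Esam (1.06) are filled in HE2, and Cdh5 (1.99) alone is filled in HP.

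Averaged over the 3 populations with equal weight, Cdh5, Cldn5, Esam and Icam2 rose with doxycycline, 4 of 7 members, where 6.91% of all genes were called higher. The averaged log2 fold changes were 0.91 ± 0.15 for Cdh5 (limma adjusted p = 0.00294), 0.95 ± 0.25 for Cldn5 (0.0347), 0.80 ± 0.15 for Esam (0.00637) and 0.77 ± 0.16 for Icam2 (0.00913). Pecam1 (0.39 ± 0.14, adjusted p = 0.104), Emcn (0.36 ± 0.32, 0.521) and Tjp1 (0.21 ± 0.16, 0.466) did not pass. Cldn5 lost its averaged call when any 1 library was left out other than NoDox HE1 replicate 2, PlusDox HE2 replicate 1 or NoDox HE2 replicate 2, with log2 fold changes of 0.71 to 0.999, and Pecam1 gained one without NoDox HE1 replicate 2 (0.49, adjusted p = 0.0481). The averaged Cldn5 call was also lost without the filter on low values (adjusted p = 0.128) or with FPKM rescaled without Lars2, Mir6236 and LOC101056014 (0.0575). Pecam1 also passed under median scaling (0.44, adjusted p = 0.0335), under quantile normalization (0.49, 0.0403) and with a term for the libraries high in Lars2 (0.43, 0.0483).

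Whether the response differed between populations was tested directly, and no member passed. The doxycycline effect on Cdh5 was 1.83 ± 0.37 log2 units larger in HP than in HE1 (95% interval 1.02 to 2.65, unadjusted p = 0.000367, limma adjusted p = 0.147) and 1.39 ± 0.37 larger in HP than in HE2 (0.58 to 2.21, adjusted p = 0.413). For Cldn5 it was 1.14 ± 0.62 larger in HE2 than in HE1 (−0.22 to 2.50, adjusted p = 0.831), and HP minus HE2 was −1.34 ± 0.62 (−2.70 to 0.02, 0.764). HE2 minus HE1 was 0.56 for Emcn, 0.48 for Pecam1, 0.44 for Cdh5 and 0.29 for Tjp1. HP minus HE1 was 0.57 for Tjp1, 0.38 for Pecam1, −0.20 for Cldn5 and −0.54 for Emcn, and HP minus HE2 was 0.29 for Icam2, 0.28 for Tjp1, 0.12 for Esam, −0.09 for Pecam1 and −1.10 for Emcn (adjusted p of 0.905 to 0.999 for these values and those for HE2 minus HE1). Unadjusted limma p-values below 0.05 were reached by 2 members for HE2 minus HE1 (Esam 0.89 and Icam2 0.92), 3 for HP minus HE1 (Cdh5 1.83, Icam2 1.21 and Esam 1.01) and 1 for HP minus HE2 (Cdh5). Of all 13316 genes, 892, 869 and 875 reached the same unadjusted threshold. At an adjusted p below 0.05 these contrasts called 6, 5 and 2 of all 13316 genes, or 0.0451%, 0.0375% and 0.015%. Each pair of these contrasts shares the libraries of 1 population.

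At the step into HE2, 4 of the 7 genes fell in NoDox cells relative to HE1, where 4.45% of all genes were called lower. Icam2 averaged 61.8 ± 26.7 FPKM in NoDox HE2 and 151.5 ± 38.8 FPKM in NoDox HE1 (log2 −1.33 ± 0.27, limma adjusted p = 0.0111). Tjp1 averaged 31.4 ± 14.6 FPKM in NoDox HE2 and 70.8 ± 7.55 FPKM in NoDox HE1 (log2 −1.22 ± 0.28, adjusted p = 0.0187). Esam averaged 68.9 ± 25.7 FPKM in NoDox HE2 and 136 ± 30.3 FPKM in NoDox HE1 (log2 −1.01 ± 0.26, adjusted p = 0.0321). Pecam1 averaged 185 ± 44.4 FPKM in NoDox HE2 and 336 ± 100 FPKM in NoDox HE1 (log2 −0.85 ± 0.24, adjusted p = 0.0489). Cdh5 (−0.84 ± 0.26, adjusted p = 0.0635), Cldn5 (−1.002 ± 0.44, 0.164) and Emcn (−1.06 ± 0.55, 0.231) did not pass. All 4 calls were lost without NoDox HE2 replicate 1, at log2 values of −0.88 for Icam2, −0.74 for Tjp1, −0.62 for Esam and −0.60 for Pecam1, and all 4 without NoDox HE1 replicate 2. The Tjp1 call was lost without NoDox HE1 replicate 1 too, and that of Pecam1 without any library other than NoDox HE1 replicate 1 or NoDox HE2 replicate 2.

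In PlusDox cells the same step gave no call among the 7, where 8.59% of all genes were called either way. The log2 difference of PlusDox HE2 from PlusDox HE1 was −0.93 ± 0.28 for Tjp1 (limma adjusted p = 0.0634), between −0.51 and −0.11 for Cdh5, Pecam1, Esam, Icam2 and Emcn, and 0.14 ± 0.44 for Cldn5 (0.869), whose sign turned under median scaling (−0.02). The median over all genes was itself shifted, by 0.17 log2 units in PlusDox and 0.16 in NoDox, while the members' medians were −0.40 and −1.01. After each library was scaled by its median gene, Tjp1 in PlusDox passed at −1.09 (adjusted p = 0.0344) and Cdh5 in NoDox at −1.02 (0.0102). The difference between these 2 steps is the difference between the HE2 and HE1 effects of doxycycline given above, which passed for no member.

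From HE2 to HP all 7 genes fell, with and without doxycycline, where 10.9% and 10.6% of all genes were called lower. In PlusDox cells, HP against HE2, the log2 fold changes were −5.30 ± 0.44 for Cldn5, −4.28 ± 0.27 for Icam2, −3.30 ± 0.26 for Esam, −2.76 ± 0.26 for Cdh5, −2.03 ± 0.28 for Tjp1 and −1.70 ± 0.24 for Pecam1 (limma adjusted p of 5.84e-06 to 0.000529). In NoDox cells they were −4.57 ± 0.27 for Icam2, −4.16 ± 0.26 for Cdh5, −3.96 ± 0.44 for Cldn5, −3.42 ± 0.26 for Esam, −2.31 ± 0.28 for Tjp1 and −1.60 ± 0.24 for Pecam1 (1.53e-06 to 0.000727). Emcn was called lower as well, at −3.98 ± 0.55 in PlusDox (limma adjusted p = 0.000414) and −2.88 ± 0.55 in NoDox (0.0034), with 1 of 2 libraries listed at 0 in each HP group. Pecam1 had the smallest fall in both conditions. Which gene had the largest depends on the pseudocount: with 0.1 in place of 1, Emcn stood at −6.70 and Cldn5 at −6.25 in PlusDox, and Cldn5 at −5.44, Icam2 at −5.19 and Emcn at −5.05 in NoDox. All 7 calls held in both conditions when any 1 library was left out.

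Markers of blood cells moved with the steps. The erythroid sum was 5916 and 9400 FPKM in PlusDox HP and 1321 and 1777 FPKM in PlusDox HE2, and 9004 and 10740 FPKM in NoDox HP and 1261 and 1304 FPKM in NoDox HE2, with 7 of 8 markers called higher in PlusDox and 8 of 8 in NoDox. The megakaryocyte and platelet list had 6 of 7 tested markers called higher in PlusDox and 4 of 7 in NoDox, and the myeloid list likewise 6 of 7 and 4 of 7. The hematopoietic list had 3 of 8 and 6 of 8 called higher, and Gfi1 was called lower in NoDox (log2 −1.82 ± 0.39, limma adjusted p = 0.00724). All 8 endothelial markers were called lower in each condition. Of all genes, 5.96% in PlusDox and 5.31% in NoDox were called higher, and 10.9% and 10.6% lower. From HE1 to HE2 all 8 erythroid markers were called higher with and without doxycycline, the hematopoietic ones in 8 of 8 in PlusDox and 5 of 8 in NoDox, and the endothelial ones were called lower in 1 of 8 in PlusDox and 3 of 8 in NoDox. At that step 5.7% of all genes in PlusDox and 5.67% in NoDox were called higher, and 2.89% and 4.45% lower. The part of the cells with these markers in the junction gene values was not tested.

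**Figure D3:**
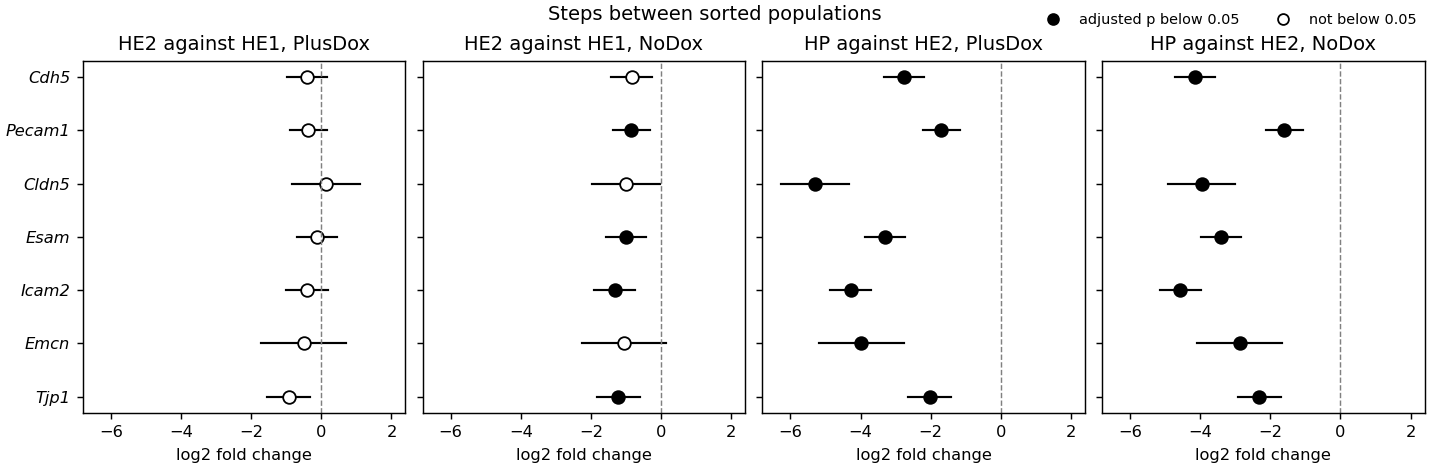
Log2 fold changes of HE2 against HE1 and of HP against HE2 (horizontal axes) for the 7 genes in PlusDox and NoDox cells, with 95% intervals from limma; filled points have an adjusted p below 0.05. HE2 against HE1 has 4 filled points in NoDox and 0 in PlusDox, and HP against HE2 has 7 in each.

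The level left in HP, as a percentage of HE1, differed between the genes. Pecam1 in HP stood at 23.7% of its HE1 mean in PlusDox cells and at 17.8% in NoDox cells. Cdh5 stood at 11.1% in PlusDox and 2.82% in NoDox, Tjp1 at 11.6% and 7.34%, and Esam at 8.81% and 3.94%. Icam2 kept 3.27% in PlusDox and 1.01% in NoDox, and Cldn5 1.29% and 0.80%. For each of these 6 genes the percentage was higher in PlusDox, most widely for Cdh5. These percentages carry no test. The HP minus HE1 effect of doxycycline given above, which compares the same groups on the log2(FPKM + 1) scale, passed for no member. For Cldn5, below 1 FPKM in all HP libraries, that effect had the other sign (−0.20). Emcn went the other way, at 0.28% in PlusDox and 1.11% in NoDox, with 1 of 2 libraries listed at 0 in each HP group.

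The makeup of the summed level changed in HP. The 7 genes summed to 1251 and 1190 FPKM in PlusDox HE1 and 904 and 1354 FPKM in NoDox HE1, to 938 and 981 FPKM in PlusDox HE2 and 445 and 727 FPKM in NoDox HE2, and to 171 and 141 FPKM in PlusDox HP and 89.9 and 75.9 FPKM in NoDox HP. In all 8 HE1 and HE2 libraries Cdh5 made up 29.8% to 36.0% of the sum, and the level of Pecam1 was 0.772 to 0.999 times that of Cdh5. In HP, Pecam1 exceeded Cdh5 by 1.71 and 2.12 times in PlusDox cells and by 6.23 and 5.27 times in NoDox cells. Pecam1 made up 53.1% and 54.8% of the sum in PlusDox HP and 75.1% and 68.7% in NoDox HP, and Cdh5 31.1% and 25.9% in PlusDox HP and 12.1% and 13.0% in NoDox HP. The ratio of Icam2 to Esam was 0.827 to 1.13 in HE1 and HE2 libraries, 0.328 and 0.449 in PlusDox HP and 0.278 and 0.291 in NoDox HP.

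**Figure D4:**
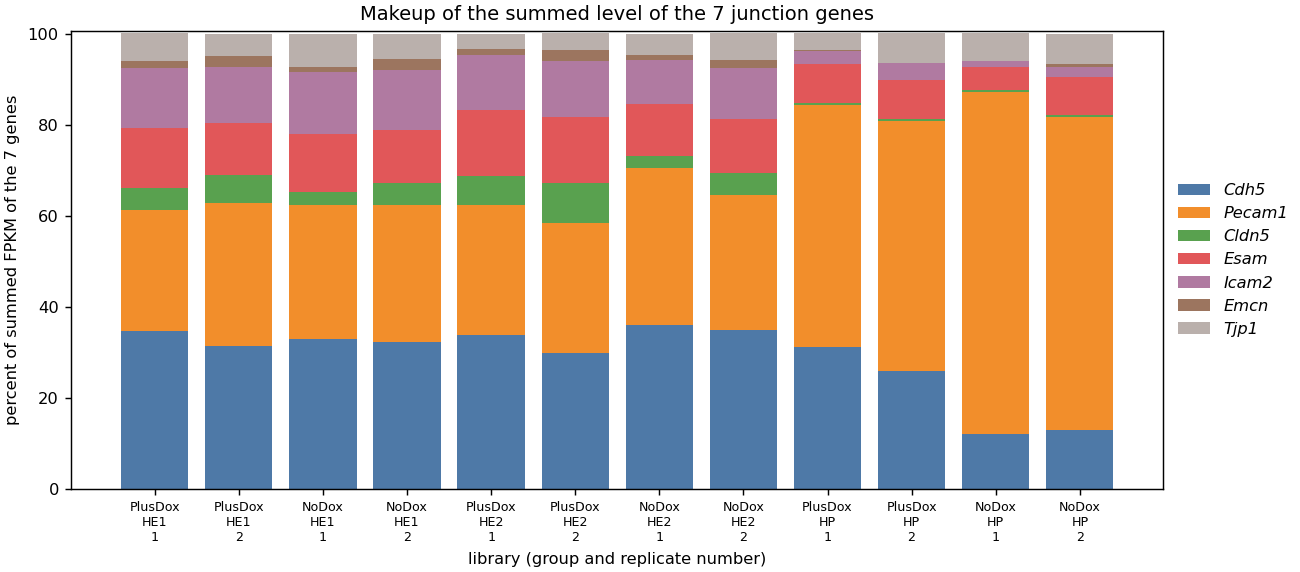
Percentage of the summed FPKM of the 7 genes held by each gene (stacked bars, vertical axis) in each of the 12 libraries. Cdh5 and Pecam1 hold like shares in HE1 and HE2, and Pecam1 (orange) widens in HP to 53.1% and 54.8% in PlusDox and 75.1% and 68.7% in NoDox.

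Spread between replicates ran in 1 direction over the members in the 2 untreated endothelial groups. In NoDox HE2, replicate 2 was higher than replicate 1 for 7 of 7 members, by 1.41 times for Pecam1 up to 3.16 times for Emcn, with a median log2 gap of 0.90 against 0.03 over all genes. In NoDox HE1 it was higher for 7 of 7 as well, with a median log2 gap of 0.55 against 0.11. Of all genes, 53.4% were higher in replicate 2 in NoDox HE2 and 67.6% in NoDox HE1. In the PlusDox groups replicate 2 was higher for 3 of 7 members in HE1, 6 of 7 in HE2 and 2 of 7 in HP, where 17.1%, 34.5% and 22.5% of all genes were. In NoDox HP it was higher for 3 of 7, where 22.2% of all genes were. Replicates 1 and 2 of NoDox HE2 also differed in the endothelial marker sum (867 and 1239 FPKM) and in the hematopoietic marker sum (136 and 92.6 FPKM), whose part in the gap was not tested.

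Other genes of the same structures responded unevenly to doxycycline. In HE2 the median log2 fold change was 0.30 over the adherens junction partners, 0.37 over the tight junction genes, 0.52 over the connexin genes, 0.28 over the sialomucins and leukocyte adhesion molecules and 0.20 over the junction regulators, against −0.05 over all genes. Of 12 adherens junction partners, 0 were called in HE1 and HE2 and 1 in HP. That gene was Ptprb, the phosphatase VE-PTP that associates with VE-cadherin, at 4.25 and 3.33 FPKM in PlusDox HP and 0.606 and 0.395 FPKM in NoDox HP (log2 1.67 ± 0.23, limma adjusted p = 0.00638), and it was lost without PlusDox HP replicate 1, NoDox HP replicate 1 or NoDox HP replicate 2. No catenin or vinculin gene passed in any of the 3 populations. Of 14 tested tight junction genes, 2 were called higher in HE1, where 0.961% of all genes were, and 4 in HE2, where 3.82% were, with 0 lower. Marveld2, which encodes tricellulin, had 7.22 and 7.40 FPKM in PlusDox HE2 and 0.309 and 0.746 FPKM in NoDox HE2 (log2 2.46 ± 0.23, adjusted p = 0.000292). Ocln, the gene of occludin, had 21.8 and 25.6 FPKM in PlusDox HE2 and 1.16 and 4.25 FPKM in NoDox HE2 (log2 2.87 ± 0.35, adjusted p = 0.0011). Lsr, which encodes angulin-1 of tricellular contacts, rose by 2.08 ± 0.28 in HE1 and 2.23 ± 0.28 in HE2 (log2; adjusted p = 0.00514 and 0.00126), and Marveld2 rose in HE1 by 1.92 ± 0.23 (0.00296). Both HE1 calls were lost without NoDox HE1 replicate 1 (0 called), and the HE2 calls of Ocln, Marveld2 and Lsr held when any 1 library was left out. In HP 0 were higher and 1, the cingulin gene Cgn, was lower (log2 −0.94 ± 0.18, adjusted p = 0.0398), where 0.233% of all genes were, a call lost without either PlusDox HP library, either PlusDox HE2 library or either NoDox HE1 library, and the gene failed the filter without either NoDox HP library.

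Among 4 tested connexin genes of gap junctions, 2 were called higher in HE2, against 3.82% of all genes, and 0 in HE1 or HP. Gja5 (connexin 40, an arterial connexin) had 19.5 and 35.5 FPKM in PlusDox HE2 and 0.610 and 5.40 FPKM in NoDox HE2 (log2 3.09 ± 0.69, limma adjusted p = 0.0226). Gja4 (connexin 37) had 77.8 and 67.3 FPKM in PlusDox HE2 and 25.3 and 37.4 FPKM in NoDox HE2 (log2 1.21 ± 0.26, adjusted p = 0.0178). Without NoDox HE2 replicate 1 or PlusDox HE2 replicate 2 both calls were lost, and without PlusDox HE2 replicate 1 that of Gja4. Of 9 tested sialomucins and leukocyte adhesion molecules, Selp, which encodes P-selectin, was the only one called, higher in HE2 (log2 1.16 ± 0.24, adjusted p = 0.0152) and in HP (1.44 ± 0.24, 0.0171; 0.601% of all genes). Its HE2 call was lost without PlusDox HE2 replicate 1 or NoDox HE2 replicate 1, and its HP call without any 1 of the 4 HP libraries. The list had up to 3 calls in HE2 without NoDox HE2 replicate 2. Selp is also a platelet gene and was at most 0.221 FPKM in the HE1 libraries. Of 20 junction regulators, Rap1a, a small GTPase, was lower in HE2 (log2 −0.66 ± 0.17, adjusted p = 0.0418), where 2.24% of all genes were, and Sox18, an endothelial transcription factor and also 1 of the 8 endothelial markers, was higher in HP (1.32 ± 0.21, 0.0133), with none called in HE1. The Rap1a call was lost without any 1 of 8 of the 12 libraries, and the Sox18 call without PlusDox HP replicate 1 or either NoDox HP library. The epithelial markers Epcam, Cdh1, Cldn6, Esrp1 and Grhl2 stayed below 1 FPKM in both HE1 and both HE2 groups, and Cldn7 was above it in 1 of these 8 libraries, PlusDox HE1 replicate 1 (1.27 FPKM). Of the 2 keratin genes of the same list, Krt18 was called higher with doxycycline in HE1 (log2 1.44 ± 0.22) and HE2 (1.71 ± 0.22), and Krt8 was not called, at 14.02 and 16.6 FPKM in PlusDox HE2 and 14.45 and 15.1 FPKM in NoDox HE2. The part of epithelial RNA in the values of Ocln, Marveld2 and Lsr was not tested.

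In the step from HE1 to HE2 most genes of the other lists were not called. Of 12 adherens junction partners, 5 were called lower in NoDox cells, where 4.45% of all genes were, and 2 in PlusDox cells, where 2.89% were, with 0 higher. They were led in NoDox by Mllt4, the afadin gene (log2 −1.44 ± 0.26), and in PlusDox by Cdh2, the gene of N-cadherin (−1.31 ± 0.25). The NoDox count was 0 without NoDox HE1 replicate 2 or NoDox HE2 replicate 1 and 3 without either NoDox HP library, and the PlusDox count was 0 without PlusDox HE2 replicate 1 and 1 without each of the other 3 PlusDox HE1 and HE2 libraries. Of the 14 tight junction genes, 3 were lower and 1 higher in NoDox cells, with Cgnl1, the paracingulin gene, at −2.004 ± 0.30 (log2), and 0 lower and 1, Tjp3, higher in PlusDox cells, where 5.67% of all genes were called higher in NoDox and 5.7% in PlusDox. The NoDox calls of Ocln and Cldn12 were lost without NoDox HE1 replicate 2 or NoDox HE2 replicate 1, each of which left 1 call in the list, while Cgnl1 held without any 1 library, and Tjp3 was lost without PlusDox HE1 replicate 2 or PlusDox HE2 replicate 1. Of 20 regulators, 4 were lower and 2 higher in NoDox cells and 1 lower in PlusDox cells, and of 4 connexin genes 2 were lower in NoDox cells and 0 in PlusDox cells. Among the 9 sialomucins and leukocyte adhesion molecules, Selp was higher in PlusDox (log2 2.41 ± 0.24) and NoDox (1.15 ± 0.24) and Mcam lower in NoDox (−1.92 ± 0.44). Without NoDox HE1 replicate 2 there were 0 calls among the regulators, connexins and sialomucins in NoDox cells, and without NoDox HE2 replicate 1 there were 0 among the regulators and connexins. The regulator called in PlusDox cells, Radil, was lost without any 1 of 10 of the 12 libraries, and Selp in NoDox cells was also lost without NoDox HE1 replicate 1 or NoDox HE2 replicate 2.

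From HE2 to HP, 9 of 12 adherens junction partners fell in PlusDox and 8 in NoDox, with 0 higher, where 10.9% and 10.6% of all genes were called lower. Leaving out 1 library gave 7 to 10 calls in PlusDox and 6 to 8 in NoDox among these partners. Among the tight junction genes it gave 6 to 9 calls either way in PlusDox and 4 to 8 in NoDox. Of the 14 tight junction genes, 9 fell in PlusDox and 7 in NoDox, and Cgn was higher in NoDox (log2 1.31 ± 0.18), where 5.31% of all genes were called higher. Of the 20 regulators, 10 fell in each condition and Rap1b, a small GTPase, was higher in PlusDox (log2 1.36 ± 0.17), where 5.96% of all genes were called higher, and in NoDox (1.05 ± 0.17). Falls were also called for 3 of 4 connexin genes and 4 of 9 sialomucins and leukocyte adhesion molecules in each condition. Ptprb had the largest fall among the partners in NoDox cells (log2 −4.59 ± 0.23), against −4.16 ± 0.26 for Cdh5. The log2(FPKM + 1) scale understates falls to levels near 0. Mean Ptprb was 35.3 FPKM in NoDox HE2 and 0.5 FPKM in NoDox HP, and mean Cdh5 was 207 and 10.4 FPKM. In NoDox cells Ctnnb1, the beta-catenin gene, fell by 0.84 (SE 0.24) on the log2 scale, a call lost without NoDox HE2 replicate 2 or either NoDox HP library. F11r, which encodes the adhesion molecule JAM-A found also on leukocytes and platelets, still had 48.2 and 41.1 FPKM in PlusDox HP and 32.9 and 33.6 FPKM in NoDox HP.

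Likeness of pattern was measured over the 6 group means of log2(FPKM + 1), each gene centred on its own mean, as the root mean square difference, among 9451 genes. Within the 7, Cdh5 and Esam were most alike (0.278) and Pecam1 and Cldn5 least (1.42). Nearest to Cdh5 were Ecscr (0.233), Id3 (0.247) and Ptprb (0.264), where the median distance to all genes was 1.96. Ecscr was also nearest to Esam (0.0700), and Acvrl1 was nearest to Icam2 (0.131) and among the 3 nearest to Cldn5 (0.356). The nearest gene was Wwtr1 for Pecam1 (0.0726), Madcam1 for Cldn5 (0.293), Fat4 for Emcn (0.216) and Thbd for Tjp1 (0.0825). These distances describe 12 libraries in 6 groups and carry no test.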

How the data were processed

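RNA from sorted cells was sequenced from a stranded total RNA kit, paired-end, as 1 pool of 12 libraries, per the labels' protocols. The tools were Trimmomatic 0.32, HISAT2 2.1.0 and StringTie 1.3.3 on mm10, per the submitters' processing notes. The values the authors deposited, 1 per gene name and without a header, were read as FPKM, an inference from StringTie and from sums of 468326 to 579055 per library. No counts are given, so depth is unknown. Repeated names were summed.

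Genes with at least 1 FPKM in at least 2 libraries (13316) were tested on log2(FPKM + 1) with limma 3.58.1 in R 4.3.3: 6 group means, all 12 libraries, intensity trend, 6 residual and 5.83 prior degrees of freedom, two-sided p-values adjusted by Benjamini-Hochberg, called below 0.05. P-values measure the spread between the 2 replicates of each group, pooled over groups. Tables and plots were made in Python 3.11.15 (pandas 2.3.3, numpy 2.4.6, matplotlib 3.10.9). The fit was tested on simulated data.

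The 7 genes, the gene lists and the tests were chosen with earlier results of these data known. All 7 genes are named in each comparison. Of each list, up to 3 called genes with the largest fold are named, plus F11r, Ctnnb1, Cgn and Rap1b in HP against HE2 and the marker genes named, chosen after their values were seen. The likeness rule took tested genes with a group mean of at least 5 FPKM and no predicted or small RNA names. Afdn is listed under its older symbol Mllt4. Alternatives changed the pseudocount, filter, scaling, trend, library class, block and samples.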

Additional observations from a re-analysis of the deposited data

How the results depend on the processing

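All 7 calls in the HP against HE2 step held under each alternative but 1: with only the 7 libraries low in Lars2, 4 of 7 remained in PlusDox and 6 in NoDox. That setting, which keeps 1 library in most groups, also left 0 calls for doxycycline in HE2, in HP and averaged and 0 for HE2 against HE1 in NoDox, with 1 residual degree of freedom. The log2 values there were 1.52 (Cldn5) and 1.03 (Esam) in HE2, 2.19 (Cdh5) in HP, 0.94 (Cdh5), 0.60 (Cldn5), 0.88 (Esam) and 0.73 (Icam2) averaged, and −1.59 (Icam2), −1.33 (Tjp1), −1.23 (Esam) and −1.15 (Pecam1) for HE2 against HE1. It turned the sign of the HE1 effects, none of them called, to −0.017 (Cdh5), −0.28 (Pecam1), −0.14 (Cldn5), −0.12 (Icam2), −0.75 (Emcn) and 0.0024 (Tjp1), and gave 0.18 for Emcn in HP, −0.062 for Emcn averaged, and 0.93 (Emcn) and 0.57 (Cldn5) for the HP minus HE1 effect. Other reversals were of uncalled values: Cldn5 HP minus HE1 with a pseudocount of 0.1 (0.37), Cldn5 HE2 against HE1 in PlusDox with median scaling (−0.021) or with FPKM rescaled without Lars2, Mir6236 and LOC101056014 (−0.082), and Esam HP minus HE2 with quantile normalization (−0.026). The cause was not tested.

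For doxycycline in HE2, 2 of 7 members called became 1 with a pseudocount of 0.1, with FPKM rescaled without those 3 features or with a term for the library class, and 0 without the filter (more genes tested) or with only the groups compared in the fit, and 3 with median scaling or quantile normalization. Calls over all genes in HE2 were 807 in the main fit and 606 with a pseudocount of 0.1. They were 450 without the filter, 366 with only the groups compared, 1595 with median scaling and 1824 with quantile normalization. In HP, 1 became 2 with a pseudocount of 0.1 and 3 with only the groups compared, while 111 calls over all genes became 92 and 198. For HE2 against HE1 in NoDox, 4 became 0 without the filter and 1 with only the groups compared, while 1348 calls over all genes became 833 and 1070. In PlusDox, 0 became 1 with median scaling, quantile normalization or only the groups compared, while 1144 calls over all genes became 1920, 2048 and 818. Whether equal replicate numbers mark a shared culture is not stated here. Same-numbered deviations correlated at 0.0818 (HE1), 0.489 (HE2) and 0.436 (HP) between PlusDox and NoDox. Between HE1 and HE2 they correlated at 0.5 in PlusDox and 0.322 in NoDox, and between HE2 and HP at 0.526 and 0.307. These values do not settle whether replicates were shared, and the main fit took no pairing. With the replicate block, calls became 3 of 7 for doxycycline in HE2 and 3 in HP, 1 for HP minus HE1 (Cdh5, limma adjusted p = 0.0493), 1 for HE2 against HE1 in PlusDox and 7 in NoDox. Calls over all genes rose as well, from 807 to 2296 for doxycycline in HE2 and from 111 to 305 in HP. They rose from 5 to 54 for HP minus HE1, and for HE2 against HE1 from 1144 to 2420 in PlusDox and from 1348 to 3126 in NoDox.

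Among the other lists, the 4 tight junction calls for doxycycline in HE2 became 7 with median scaling or quantile normalization, the 2 connexin calls 0 without the filter, and the Selp calls in HE2 and HP 0 without the filter or with a pseudocount of 0.1. Calls over all genes in HE2 went from 807 to 1595 with median scaling, 1824 with quantile normalization and 450 without the filter.

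Leaving out each library in turn gave 0 to 3 calls for doxycycline in HE2 and in HP, 3 to 5 averaged, 0 to 1 for HE2 against HE1 in PlusDox and 0 to 6 in NoDox, and turned the sign of uncalled values only, whose ranges follow. For the HE1 effect they were −0.12 to 0.43 (Cdh5), −0.20 to 0.41 (Pecam1), −0.065 to 0.39 (Esam), −0.20 to 0.33 (Icam2), −0.46 to 1.17 (Emcn), −0.27 to 0.11 (Tjp1). For HP minus HE2 they were −0.34 to 0.15 (Pecam1), −0.27 to 0.50 (Esam), −0.16 to 0.74 (Icam2), −0.19 to 0.76 (Tjp1). For HP minus HE1 they were −0.83 to 0.43 (Cldn5), −1.36 to 0.27 (Emcn). For HE2 against HE1 in PlusDox they were −0.12 to 0.40 (Cldn5), −0.26 to 0.029 (Esam), −1.03 to 0.017 (Emcn). For the HP effect they were −0.46 to 0.088 (Emcn). For HE2 minus HE1 they were −0.26 to 1.37 (Emcn), −0.19 to 0.77 (Tjp1). For the HE2 effect they were −0.27 to 0.69 (Tjp1). Differences of genes below 1 FPKM, such as Cldn5 and Emcn in HP, cannot be resolved at an unknown depth.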
